A study of Mus musculus with 19 samples.

Results

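The 33 genes described here carry glucose through uptake, glycolysis, lactate handling, the entry of pyruvate into the citric acid cycle and the pentose phosphate pathway. They were picked by symbol from the 39017 genes of the count table, and all 33 were found in it. The list holds 2 glucose transporters, 11 genes of upper glycolysis, 6 of lower glycolysis, 4 of lactate formation and transport, 5 of pyruvate entry and 5 of the pentose phosphate pathway. Glycolysis splits glucose into pyruvate, and lactate dehydrogenase and the monocarboxylate transporters dispose of the pyruvate as lactate when it does not enter mitochondria. The pyruvate dehydrogenase complex turns pyruvate into acetyl-CoA and is switched off by its kinases. The pentose phosphate pathway branches off glucose phosphate and yields NADPH and ribose phosphate. Many tumors keep a high flow through glycolysis to lactate even with oxygen present, a trait known as the Warburg effect.

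RNA was sequenced from E0771 cells, a single mouse mammary carcinoma line carrying mCherry. Per the labels, 50000 cells were placed in a mammary fat pad of c57bl6 mice, and mCherry-positive cells were sorted from the dissociated tumors. All 4 groups thus share the line, the reporter and the strain, and differ in the host and the day. The groups were obese mice at day 21 after implantation (endpoint, 5 libraries), lean mice at day 21 (endpoint, 4 libraries used of 5), obese mice at day 14 (midpoint, 5 libraries) and lean mice at day 14 (midpoint, 4 libraries). The sample titles pair obese with HFD and lean with Chow, and the labels give no sex or age of the mice and no composition of the diets.

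The 18 libraries held 44174080 to 56996252 counts each. Lean endpoint replicate 4 was left out: it held 11889188 counts, and 0 of 8419 well-counted genes beyond chromosome 5 had a count in it. Levels are given in CPM, counts relative to the library total as scaled by the TMM method, and replicates are listed in the order of their numbers (1, 2, 3 and 5 for lean endpoint). Of 7 epithelial and carcinoma markers, Krt8 alone averaged at least 1 CPM, and Cldn4 had 0 counts in every library. All 7 pan-leukocyte markers averaged at least 1 CPM, so the markers do not show the sorted cells to be free of other cell types. In such bulk samples, fewer cells of a type and less RNA per cell cannot be told apart. Each library's log2 levels, taken relative to each gene's mean over the 18 libraries, were regressed on the GC content of the genes. The slope of this fit, in the same unit for every library, moved with the groups. It lay between -0.874 and -0.419 in obese endpoint libraries and between -0.874 and -0.0643 in lean endpoint libraries. At midpoint it lay between 0.326 and 1.52 in obese midpoint libraries and between 0.106 and 0.443 in lean midpoint libraries. The share of counts from the mitochondrial genome was 17.1% to 24.4% in obese endpoint, 17.1% to 44.7% in lean endpoint, 5.79% to 8.06% in obese midpoint and 8.95% to 12.3% in lean midpoint libraries. The 44.7% came from lean endpoint replicate 1, and the next highest of that group was 23.2%. This replicate also had the lowest TMM factor of the 18 libraries, 0.606. It gave its group's highest values of Dld, Pdhb, Hk2 and Slc16a1 and its lowest of Pgls. The share from 7SK RNA was 0.999% to 1.76% in obese endpoint and 0.945% to 2.33% in lean endpoint libraries. It was 2.15% to 6.68% in obese midpoint and 2.15% to 2.72% in lean midpoint libraries. Obese midpoint replicates 2 and 3 had the highest 7SK shares, 6.68% and 4.8%. Without mitochondrial and structural RNA genes, 19 of the genes described here were called between diets at midpoint, 0 at endpoint, 5 over time in lean and 28 in obese mice. With them the counts were 18, 0, 5 and 28, where 28.9%, 0.00612%, 30.6% and 73.9% of all genes tested were called. The share of all genes called in the fit without them is not given, so its counts say nothing about these genes alone. For the genes of these pathways, fold changes were also computed after correcting each library for the GC content and length of genes. These values, called corrected, stand beside the calls. Calls of the cell type markers are from the deposited counts alone.

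The level per kilobase of exon ranked the genes over a wide range. Pkm, which makes pyruvate in the last step of glycolysis, was the most abundant at a mean of 892 CPM per kb over 18 libraries. Tpi1 followed at 487, Aldoa at 474 and Ldha at 432 CPM per kb, while G6pdx averaged 140, Slc2a1 120 and Gpi1 111 CPM per kb. The isozymes typical of other tissues were low: Eno2, the neuronal enolase, averaged 1.1 CPM per kb, Aldoc, the brain aldolase, 0.249 CPM per kb, and Ldhb, the heart-type lactate dehydrogenase subunit, 0.0327 CPM per kb. Ldhb was the sole gene to miss the filter on low counts, at 0 to 0.185 CPM, so 32 of the 33 genes entered the tests. Gapdh ranked 23 at 15.7 CPM per kb. Of its mRNA, 82.5% of the 50-base stretches occur also in other genes, 220 of them pseudogenes, and its level is therefore uncertain. The same share was 72.2% for Eno1, 68% for Pgk1, 41.5% for Pgam1, 34.4% for Pkm, 30.3% for Pdhb, 27% for Ldhb and 25.3% for Gpi1, and between 0% and 17.1% for the other 25 genes. Reads of the 8 genes over 25% may be split with those copies, so their counts are uncertain too. Together the 33 genes took 0.641% to 0.875% of the scaled counts in obese endpoint libraries, 0.778% to 0.871% in lean endpoint libraries, 1.09% to 1.9% in obese midpoint libraries and 0.792% to 1.14% in lean midpoint libraries.

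The comparison of obese with lean mice at midpoint asks whether the host's diet moved these steps in the early tumor. Fold changes here are log2 values of the first-named group over the second. In obese mice 15 of the 32 tested genes were higher and 3 were lower. The higher ones were spread over upper glycolysis (Hk1, Gpi1, Pfkl, Pfkm and Tpi1), lower glycolysis (Gapdh, Eno1 and Pkm), lactate handling (Ldha and Slc16a3) and all 5 genes of the pentose phosphate pathway. The lower ones were the lactate and pyruvate transporter Slc16a1 and the pyruvate dehydrogenase genes Pdha1 and Dld. Over all 16352 genes tested, 28.9% were called (16.4% higher and 12.6% lower), against 46.9% higher and 9.38% lower among these genes, and the median log2 fold change was 0.41 for these genes and -0.001 for all genes. For 4 of the 33 genes (Gpi1, Pfkp, G6pdx and Taldo1) every obese library lay above every lean library, and for none below. The share of all tested genes was 4.9% above and 3.14% below. Calls are from edgeR's quasi-likelihood fit at an adjusted p of 0.05 (Benjamini-Hochberg over all genes tested), and 0 of the 18 remained when obese midpoint replicate 2 or 3, or lean midpoint replicate 2 or 3, was left out. In each of these 4 fits 0 of all genes were called, while the median of the 32 genes stayed at 0.31, 0.37, 0.32 and 0.40 in the order named. Without lean midpoint replicate 1 there were 7 calls (14.5% of all genes), and without obese midpoint replicate 5 there were 12 (14.6% of all genes). After the GC and length correction 6 genes were higher and none was lower: Gpi1, Pfkp, Gapdh, Ldha, G6pdx and Pgd. The corrected median was 0.19 for these genes and 0.03 for all, and 11.7% of all genes were called (7.63% higher and 4.09% lower).

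**Figure D1:**
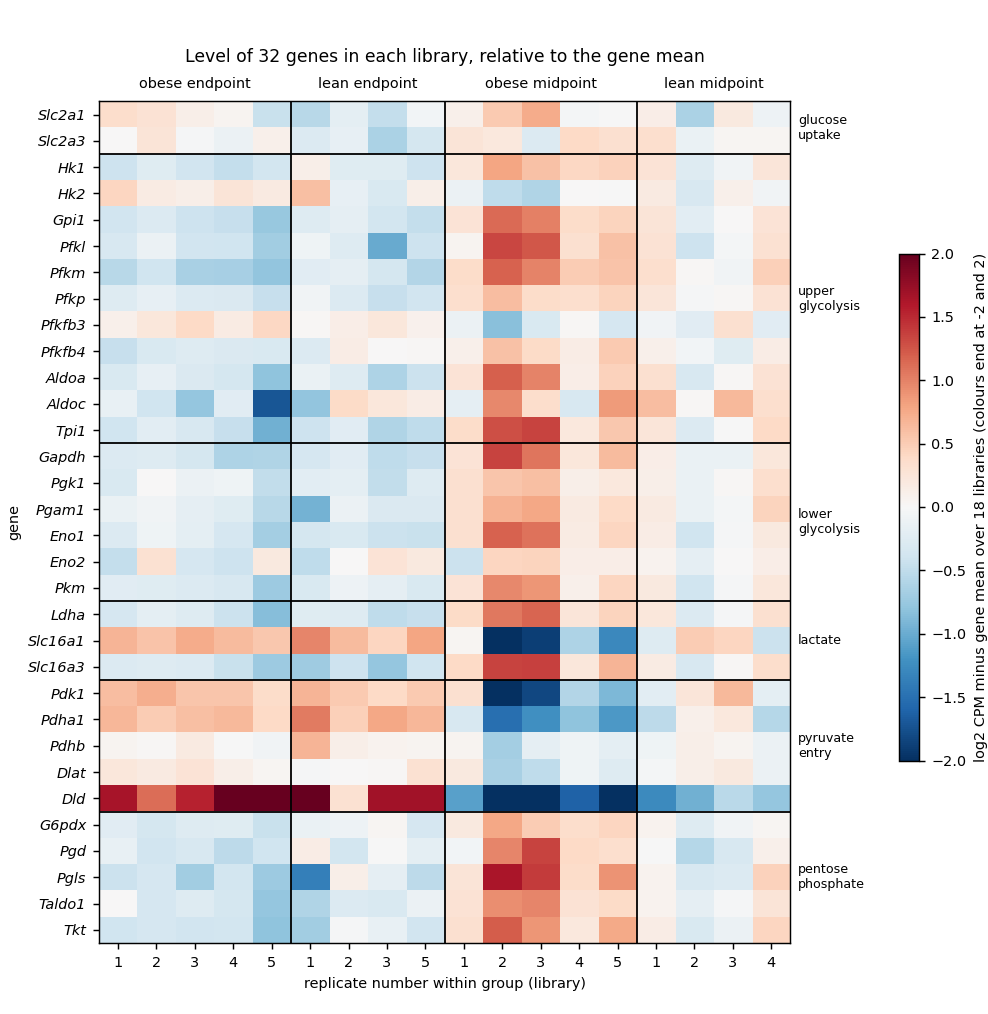
Each row is a gene and each column a library (replicate number below, group above); colour gives log2 CPM minus the gene's mean over 18 libraries, with colours ending at -2 and 2. Replicates 2 and 3 of the obese midpoint group carry the strongest colours at midpoint, and Dld is high in all endpoint libraries except lean endpoint replicate 2, where it is nearer to its mean.

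At endpoint the comparison of obese with lean mice gave no call among the 32 genes, against 0.00612% (1 gene) of all 16352 genes tested. A single member of the 32 passed an unadjusted p of 0.05 in edgeR's test, against 794 of all 16352 genes. DESeq2 and limma-voom likewise called 0 of the members after adjustment. Log2 fold changes ran from -0.65 (Aldoc) to 0.40 (Slc2a1), with a median of -0.03 and standard errors of 0.13 to 0.41. Differences of the size of these errors, and larger ones, could go uncalled, so the 0 calls do not show equal levels. The member at the unadjusted threshold was the glucose transporter Slc2a3, for which every obese library lay above every lean library. Of all tested genes 0.636% did so and 1.33% lay below without overlap, as none of the 33 did. After the GC and length correction the value of Slc2a3 was 0.32 (log2, SE 0.19, edgeR unadjusted p = 0.109). Unadjusted p under 0.05 then belonged to Slc2a1, Hk1 and Pfkfb4, none of them a call.

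The comparisons over time ask what changed between day 14 and day 21 in each host. In obese mice at endpoint 7 genes were higher and 21 lower than at midpoint, and 4 were not called (Slc2a1, Slc2a3, Eno2 and Pdhb). The higher ones were Hk2, Pfkfb3, Slc16a1, Pdk1, Pdha1, Dlat and Dld. All 5 pentose phosphate genes, 5 of 6 lower glycolysis genes, 9 of 11 upper glycolysis genes, Ldha and Slc16a3 were lower. The background was high, since 73.9% of all genes tested were called (37.8% higher and 36.1% lower), against 21.9% higher and 65.6% lower here, with medians of -0.82 for these genes and -0.0015 for all. Every endpoint library lay above every midpoint library for 6 of the 33 genes and below for 20; the background was 31.3% above and 28.9% below. After the GC and length correction 4 were higher (Slc2a1, Hk2, Pdha1 and Dld) and 15 lower, with a median of -0.34 for these genes and 0.04 for all; of all genes 55.6% were called (28.6% higher and 27% lower).

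In lean mice 2 genes were higher at endpoint than at midpoint, Dld and Pdha1, and 3 were lower, Pfkm, Pfkp and Slc16a3. Of all genes tested 30.6% were called (21.2% higher and 9.33% lower), against 6.25% higher and 9.38% lower among these genes. The median log2 fold change was -0.36 for these genes and 0.04 for all genes. Without lean midpoint replicate 1 or 4 a single call remained, Dld. There were 2 without lean endpoint replicate 3 or 5, 3 without obese endpoint replicate 1 or 3, and 10 without obese midpoint replicate 2; the obese libraries share the fit. Over these 7 fits the share of all genes called ran from 19.1% to 38.6%. Every endpoint library lay above every midpoint library for 2 of the 33 genes (Dld and Pdha1) and below for 6 (Slc2a3, Pfkm, Pfkp, Gapdh, Pgk1 and Slc16a3), against 19.9% above and 13.2% below among all genes tested. The GC and length correction gave 2 higher (Pfkfb4 and Dld) and 3 lower genes (Slc2a3, Pfkp and Dlat), against 23.5% of all genes called. The comparisons over time share their midpoint libraries with the diet comparison at midpoint, and their endpoint libraries with the one at endpoint, so their values are given side by side.

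The diet by time interaction, the diet difference at endpoint minus that at midpoint, was called for 0 of 32 genes with edgeR, and for 0% of all genes; 14 of the 32 and 5411 of all 16352 genes had an unadjusted p under 0.05. DESeq2 called 3 of the 32 (7.73% of all genes) and limma-voom 14 (31.3% of all genes). Without obese midpoint replicate 1 edgeR called 15 (34.6% of all genes), and all other single omissions gave 0. Fold changes of the interaction were below 0 for all 5 pentose phosphate genes, from -1.13 (log2, SE 0.32, edgeR adjusted p = 0.101) for Pgd to -0.57 (log2, SE 0.27, edgeR adjusted p = 0.143) for Taldo1. Corrected for GC and length they were below 0 too but less even. They ran from -1.57 (log2, SE 0.40, edgeR adjusted p = 0.0938) for Pgd to -0.18 (log2, SE 0.20, edgeR adjusted p = 0.602) for Taldo1.

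**Figure D2:**
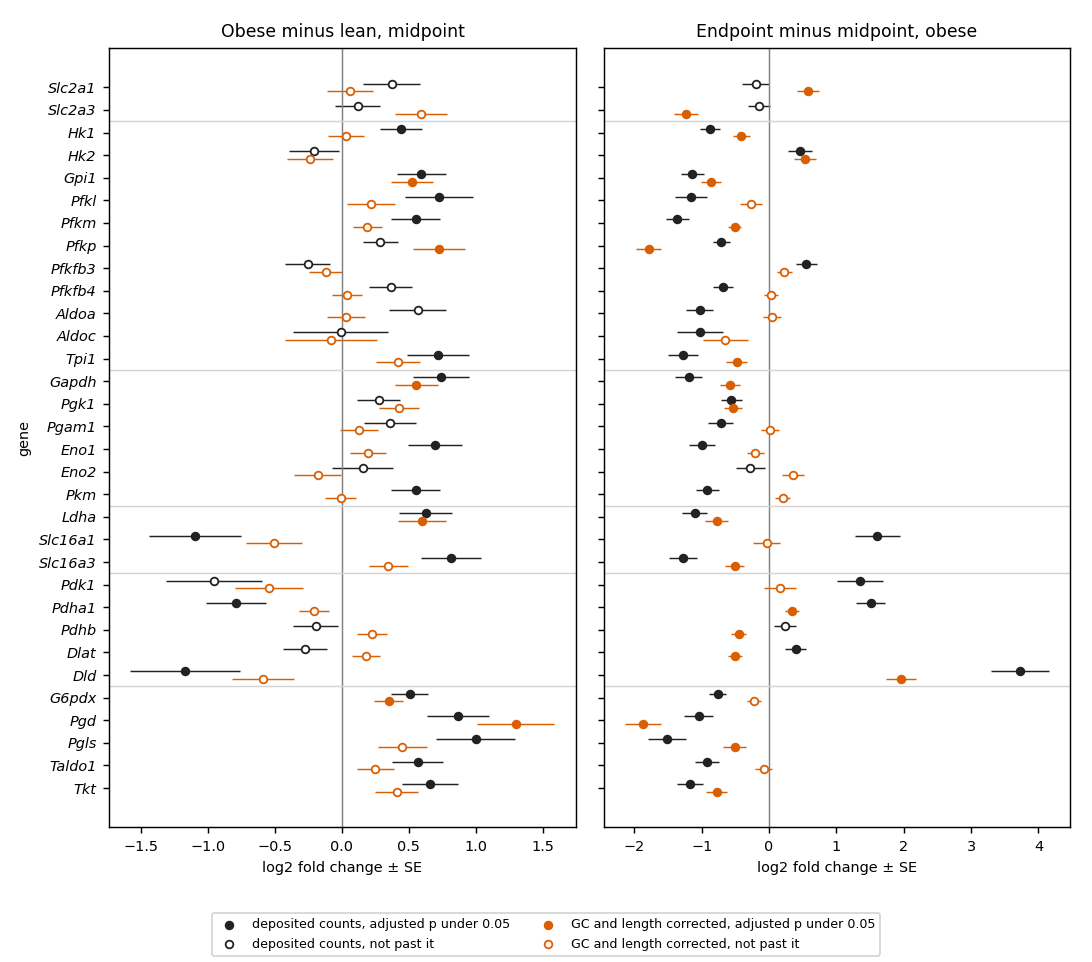
Log2 fold change ± SE per gene for obese minus lean at midpoint (left) and endpoint minus midpoint in obese mice (right), from the deposited counts (black) and after the GC and length correction (orange); filled points passed adjusted p of 0.05. At midpoint 18 black and 6 orange points are filled, and over time in obese mice 28 black and 19 orange points.

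Neither glucose transporter passed the threshold in any comparison of the deposited counts. Slc2a1, the basal transporter of most cell types, had 425, 408, 362, 345 and 244 CPM in the obese endpoint libraries, against 227, 289.8, 239 and 322 CPM in the lean endpoint libraries. At midpoint, Slc2a1 had 358, 477, 558, 324 and 332 CPM in the obese midpoint libraries, against 363, 214, 379.5 and 310 CPM in the lean midpoint libraries. The groups overlapped in all 4 comparisons of 2 groups, and the largest difference was 0.40 (log2, SE 0.21, edgeR adjusted p = 0.999) at endpoint. Its fold change over time in obese mice was -0.20 (log2, SE 0.20, edgeR adjusted p = 0.366), and 0.58 (log2, SE 0.17, edgeR adjusted p = 0.006) once corrected for GC and length, which turned its sign. Slc2a3, a high-affinity transporter, had 20.7, 24.8, 20.2, 19.03 and 22.3 CPM in the obese endpoint libraries, against 17.1, 18.4, 13.4 and 16.1 CPM in the lean endpoint libraries. Values of Slc2a3 at midpoint were 24.6, 24.02, 17.1, 27.1 and 25.9 CPM in the obese midpoint libraries, against 26.2, 18.9, 21.2 and 21.2 CPM in the lean midpoint libraries. Obese endpoint libraries were all above lean endpoint libraries, by 0.40 (log2, SE 0.17, edgeR adjusted p = 0.999). The corrected difference there was 0.32 (log2, SE 0.19, edgeR adjusted p = 0.716). Lean endpoint libraries were all below lean midpoint libraries, with a fold change of -0.43 (log2, SE 0.18, edgeR adjusted p = 0.0696). Corrected for GC and length, that value was -0.96 (log2, SE 0.20, edgeR adjusted p = 0.00284) in lean and -1.23 (log2, SE 0.18, edgeR adjusted p = 1.6e-05) in obese mice.

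In upper glycolysis 5 of 11 genes were higher in obese mice at midpoint and none was lower; over time in obese mice 9 fell and 2 rose, and in lean mice 2 fell. Gpi1, which turns glucose phosphate into fructose phosphate, had 359, 386, 352, 341 and 276 CPM in the obese endpoint libraries, against 389, 412, 362 and 334 CPM in the lean endpoint libraries. Midpoint levels of Gpi1 were 567, 1020, 943, 605 and 634 CPM in the obese midpoint libraries, against 556, 404, 472 and 566 CPM in the lean midpoint libraries. The lowest obese midpoint library was thus barely above the highest lean one, while replicates 2 and 3 stood well clear. Gpi1 was higher in obese mice at midpoint by 0.59 (log2, SE 0.18, edgeR adjusted p = 0.0325) and fell over time in obese mice by 1.14 (log2, SE 0.17, edgeR adjusted p = 1.13e-05). These calls held after the correction, at 0.52 (log2, SE 0.16, edgeR adjusted p = 0.0404) and -0.86 (log2, SE 0.15, edgeR adjusted p = 7.47e-05).

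Hexokinases trap glucose by phosphorylation. Hk1, the housekeeping form, had 203, 228, 206, 193 and 208 CPM in the obese endpoint libraries, against 293, 228, 228 and 201 CPM in the lean endpoint libraries. At midpoint, Hk1 had 316, 466, 406, 359 and 369 CPM in the obese midpoint libraries, against 325, 226, 258 and 320.2 CPM in the lean midpoint libraries. It was higher in obese mice at midpoint by 0.44 (log2, SE 0.16, edgeR adjusted p = 0.0421), with overlap, and over time in obese mice it fell without overlap by 0.88 (log2, SE 0.15, edgeR adjusted p = 2.7e-05). Corrected, the diet difference of Hk1 was 0.03 (log2, SE 0.14, edgeR adjusted p = 0.9), no longer a call, and the fall -0.41 (log2, SE 0.13, edgeR adjusted p = 0.0104). Hk2, the inducible form, ranged over 173 to 215 CPM in obese endpoint, 129 to 242 CPM in lean endpoint, 106 to 160.3 CPM in obese midpoint and 128 to 181 CPM in lean midpoint libraries. It rose over time in obese mice, by 0.46 (log2, SE 0.18, edgeR adjusted p = 0.0245), and the corrected value of 0.54 (log2, SE 0.16, edgeR adjusted p = 0.00877) was close to it; at midpoint its diet difference was -0.21 (log2, SE 0.19, edgeR adjusted p = 0.385). Over time in obese mice these isoforms thus moved in opposite directions, and the test of their ratio is given further on.

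Phosphofructokinase, the committed step, is built from the liver, muscle and platelet subunits Pfkl, Pfkm and Pfkp. Pfkl had 129, 149, 124, 122 and 99.5 CPM in the obese endpoint libraries, against 151, 134, 80.3 and 120.5 CPM in the lean endpoint libraries. The midpoint values of Pfkl were 168, 408, 379.6, 200.3 and 242 CPM in the obese midpoint libraries, against 198, 121, 157 and 200.1 CPM in the lean midpoint libraries. Replicates 2 and 3 of the obese midpoint group were the highest of all 18 libraries, and obese midpoint replicate 1 lay inside the lean range. Its diet difference at midpoint was 0.73 (log2, SE 0.25, edgeR adjusted p = 0.0405) and its change over time in obese mice -1.16 (log2, SE 0.24, edgeR adjusted p = 0.00022). Neither remained a call after the correction, at 0.22 (log2, SE 0.18, edgeR adjusted p = 0.435) and -0.27 (log2, SE 0.17, edgeR adjusted p = 0.187). Pfkm had 35.96, 40.2, 33.8, 33.7 and 30.8 CPM in the obese endpoint libraries, against 45.3, 46.9, 41.6 and 35.5 CPM in the lean endpoint libraries. Midpoint levels of Pfkm were 68.5, 120.1, 106, 75.7 and 79.1 CPM in the obese midpoint libraries, against 67.3, 53.99, 50.3 and 73.5 CPM in the lean midpoint libraries. It was higher in obese mice at midpoint, by 0.55 (log2, SE 0.18, edgeR adjusted p = 0.0356), and fell without overlap over time in both hosts, with fold changes of -1.36 (log2, SE 0.17, edgeR adjusted p = 1.83e-06) in obese and -0.53 (log2, SE 0.19, edgeR adjusted p = 0.0402) in lean mice. The corrected fall in obese mice, -0.51 (log2, SE 0.10, edgeR adjusted p = 0.000292), remained a call, while the diet difference, 0.19 (log2, SE 0.11, edgeR adjusted p = 0.232), and the change in lean mice, -0.10 (log2, SE 0.11, edgeR adjusted p = 0.549), did not.

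Pfkp, the platelet subunit, had 329, 348, 324, 320.2 and 286 CPM in the obese endpoint libraries, against 374, 323, 286 and 299.8 CPM in the lean endpoint libraries. At midpoint, Pfkp had 496, 601, 506, 492 and 534 CPM in the obese midpoint libraries, against 464, 383, 397 and 478 CPM in the lean midpoint libraries. No obese midpoint library overlapped the lean ones, but the diet difference of 0.29 (log2, SE 0.13, edgeR adjusted p = 0.0941) did not pass. After the correction it did, at 0.72 (log2, SE 0.20, edgeR adjusted p = 0.0317). Over time Pfkp fell in obese mice by 0.71 (log2, SE 0.12, edgeR adjusted p = 4.35e-05) and in lean mice by 0.42 (log2, SE 0.14, edgeR adjusted p = 0.0263), without overlap in either, and the corrected fold changes were -1.79 and -0.98. Pfkfb3 and Pfkfb4 make and remove the sugar phosphate that activates phosphofructokinase. Over time in obese mice Pfkfb3 rose by 0.55 (log2, SE 0.16, edgeR adjusted p = 0.00425) and Pfkfb4 fell by 0.69 (log2, SE 0.15, edgeR adjusted p = 0.000396); the corrected log2 values were 0.23 and 0.03, neither past the threshold. Pfkfb3 ranged over 62.4 to 77.7 CPM in obese endpoint, 58.9 to 68.1 CPM in lean endpoint, 32.7 to 58.9 CPM in obese midpoint and 49.8 to 72.5 CPM in lean midpoint libraries. Pfkfb4 ranged over 8.76 to 10.2 CPM in obese endpoint, 10.02 to 13.4 CPM in lean endpoint, 12.98 to 18.2 CPM in obese midpoint and 10.3 to 13.5 CPM in lean midpoint libraries.

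Aldolase splits the fructose bisphosphate. Aldoa, the main form here, ranged over 701 to 1093 CPM in obese endpoint, 797 to 1110 CPM in lean endpoint, 1339 to 2796 CPM in obese midpoint and 983 to 1525 CPM in lean midpoint libraries. Its diet difference at midpoint just missed the threshold, at 0.57 (log2, SE 0.21, edgeR adjusted p = 0.0508), and over time in obese mice it fell by 1.03 (log2, SE 0.20, edgeR adjusted p = 0.000134), a value that was 0.05 (log2, SE 0.13, edgeR adjusted p = 0.788) after the correction. Aldoc lay between 0.199 and 1.48 CPM in every library and fell over time in obese mice, by 1.02 (log2, SE 0.35, edgeR adjusted p = 0.012), but not once corrected, at -0.65 (log2, SE 0.34, edgeR adjusted p = 0.108). Tpi1, which interconverts the resulting triose phosphates, had 736, 839, 782, 709 and 504 CPM in the obese endpoint libraries, against 735, 834, 640.5 and 688 CPM in the lean endpoint libraries. Values of Tpi1 at midpoint were 1253, 2385, 2479, 1130 and 1422 CPM in the obese midpoint libraries, against 1148, 805, 970.2 and 1288 CPM in the lean midpoint libraries. Obese midpoint replicates 2 and 3 were well over the other 16 libraries, and the remaining obese midpoint libraries overlapped the lean ones. Tpi1 was higher in obese mice at midpoint by 0.72 (log2, SE 0.23, edgeR adjusted p = 0.0333), fell over time in obese mice by 1.28 (log2, SE 0.22, edgeR adjusted p = 3.46e-05), and changed by -0.54 (log2, SE 0.24, edgeR adjusted p = 0.0902) in lean mice. The corrected log2 values were 0.42, -0.48 and -0.11, of which the second passed.

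In lower glycolysis 3 of 6 genes were higher in obese mice at midpoint, and over time 5 fell in obese mice and none was called in lean mice. Gapdh oxidises glyceraldehyde phosphate; its counts are uncertain, as given above. Gapdh had 30.6, 31.1, 28.97, 24.1 and 24.3 CPM in the obese endpoint libraries, against 29.4, 31.6, 26.01 and 26.9 CPM in the lean endpoint libraries. Midpoint levels of Gapdh were 44.6, 94.6, 78.3, 43.2 and 57.4 CPM in the obese midpoint libraries, against 40.5, 33.95, 33.96 and 43.5 CPM in the lean midpoint libraries. It was higher in obese mice at midpoint by 0.74 (log2, SE 0.21, edgeR adjusted p = 0.0315) with overlap, and lower at endpoint in obese mice by 1.19 (log2, SE 0.20, edgeR adjusted p = 2.65e-05) without overlap. Both calls held under the correction, at 0.56 (log2, SE 0.16, edgeR adjusted p = 0.0352) and -0.58 (log2, SE 0.15, edgeR adjusted p = 0.00297). Pgk1 and Pgam1, which share sequence with other genes too, carry the next steps. Pgk1 had 20.2, 25.3, 23.1, 23.7 and 17.8 CPM in the obese endpoint libraries, against 21.6, 21.9, 17.9 and 20.9 CPM in the lean endpoint libraries. At midpoint, Pgk1 had 31.3, 36.7, 38.1, 27.2 and 28.9 CPM in the obese midpoint libraries, against 27.1, 22.97, 25.5 and 31.6 CPM in the lean midpoint libraries. It fell over time in obese mice by 0.56 (log2, SE 0.15, edgeR adjusted p = 0.00267), and the corrected log2 value of -0.54 was nearly the same. In lean mice its libraries did not overlap over time either, but the fold change of -0.38 (log2, SE 0.17, edgeR adjusted p = 0.0906) did not pass.

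Pgam1 had 18.5, 19.3, 17.9, 17.1 and 13.8 CPM in the obese endpoint libraries, against 10.6, 18.7, 16.6 and 16.5 CPM in the lean endpoint libraries. The midpoint values of Pgam1 were 25.3, 32.96, 34.9, 23.03 and 26.8 CPM in the obese midpoint libraries, against 23.1, 18.4, 19.8 and 27.7 CPM in the lean midpoint libraries. It fell over time in obese mice by 0.72 (log2, SE 0.18, edgeR adjusted p = 0.00144), and the corrected fold change was 0.01; the lowest of all 18 values came from lean endpoint replicate 1. Eno1, the ubiquitous enolase, had 225, 257, 236, 215 and 170.2 CPM in the obese endpoint libraries, against 214, 219, 201 and 200.2 CPM in the lean endpoint libraries. Midpoint levels of Eno1 were 341, 612, 574, 304 and 368 CPM in the obese midpoint libraries, against 301, 206, 266 and 313 CPM in the lean midpoint libraries. Eno1 was higher in obese mice at midpoint by 0.70 (log2, SE 0.20, edgeR adjusted p = 0.0315) and fell over time in obese mice by 0.99 (log2, SE 0.19, edgeR adjusted p = 0.000115); neither passed after the correction, at 0.19 and -0.21. Eno2, the neuronal form, lay between 3.53 and 6.85 CPM in all libraries and was called nowhere.

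Pkm, the pyruvate kinase, had 1893, 1879, 1826, 1766 and 1342 CPM in the obese endpoint libraries, against 1789, 2070, 1952 and 1788 CPM in the lean endpoint libraries. At midpoint, Pkm had 2664, 4315, 4088, 2385 and 2986 CPM in the obese midpoint libraries, against 2527, 1684, 2173 and 2596 CPM in the lean midpoint libraries. Replicates 2 and 3 of the obese midpoint group were again the highest of all 18 libraries, and replicate 4 of that group lay inside the lean range. Pkm was higher in obese mice at midpoint by 0.55 (log2, SE 0.19, edgeR adjusted p = 0.0376) and fell over time in obese mice by 0.92 (log2, SE 0.17, edgeR adjusted p = 0.00011). Corrected for GC and length, the values were -0.01 (log2, SE 0.12, edgeR adjusted p = 0.977) and 0.20 (log2, SE 0.11, edgeR adjusted p = 0.126), both of the opposite sign. Pkm has the highest GC content of the 33 genes, at 57.69% of the bases of its longest transcript, the measure used for all genes here.

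Lactate formation and transport held the clearest contrast between genes of one step: in obese mice at midpoint Ldha and Slc16a3 were higher and Slc16a1 was lower, and over time in obese mice the signs were the reverse. On the mm10 build Slc16a3 lies at chr11:120948480-120960868, plus strand, Slc16a1 at chr3:104638668-104658462, plus strand, and Ldha at chr7:46841475-46855627, plus strand. Slc16a3 encodes a low-affinity transporter known for lactate export from glycolytic cells, and Slc16a1 a carrier of higher affinity that moves lactate and pyruvate in either direction. The bases upstream of their starts, and of the start of Ldha, are shown because these 3 genes moved together or apart; they are the 250 bases before the RefSeq start in GRCm38.p6, 5′ to 3′ on the gene's strand. Capitals mark ACGTG and GCGTG, the cores of hypoxia response elements, on either strand (CACGT and CACGC on the other); the E-box CACGTG holds ACGTG on both strands. The stretches are chr11:120948817-120949066, plus strand, for Slc16a3, chr3:104638414-104638663, plus strand, for Slc16a1, and chr7:46845554-46845803, plus strand, for the first of 2 listed starts of Ldha. Those of Slc16a3 and Ldha lie inside the gene spans given above, which begin before these RefSeq starts, so they are upstream of the RefSeq starts alone.
Slc16a3: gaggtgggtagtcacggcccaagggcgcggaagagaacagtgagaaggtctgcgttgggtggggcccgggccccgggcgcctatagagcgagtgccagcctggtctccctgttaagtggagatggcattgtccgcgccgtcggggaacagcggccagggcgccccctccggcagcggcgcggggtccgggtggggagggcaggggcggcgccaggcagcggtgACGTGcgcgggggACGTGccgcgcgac
Slc16a1: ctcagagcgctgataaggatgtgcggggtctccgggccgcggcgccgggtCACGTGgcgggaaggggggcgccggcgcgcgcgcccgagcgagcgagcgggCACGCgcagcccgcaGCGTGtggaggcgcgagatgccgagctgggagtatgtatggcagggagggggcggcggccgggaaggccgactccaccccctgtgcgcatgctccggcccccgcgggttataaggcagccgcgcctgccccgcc
Ldha: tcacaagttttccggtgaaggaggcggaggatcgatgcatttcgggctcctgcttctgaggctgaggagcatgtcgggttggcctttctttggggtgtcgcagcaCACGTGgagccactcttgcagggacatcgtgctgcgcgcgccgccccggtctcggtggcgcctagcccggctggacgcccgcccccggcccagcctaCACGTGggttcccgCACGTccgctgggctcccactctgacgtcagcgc
Counting both strands, ACGTG occurred 2 times in the Slc16a3 stretch, 2 times in that of Slc16a1 and 5 times in that of Ldha, and GCGTG 0, 2 and 0 times. At least 1 of the 2 cores was found in 35 of 46 promoters of 32 of these genes (76.1%) and in 38.6% of all 32851 RefSeq promoters of that length; Slc2a3 had no entry. GC content of these stretches was 73.6% for Slc16a3, 76.4% for Slc16a1 and 67.2% for Ldha. Both cores hold the letters CG, and the 2 sets of promoters were not matched for GC content. Some genes also enter with several overlapping stretches. Whether the shares differ beyond base composition was not tested. A match describes letters and is not a site.

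Ldha, which reduces pyruvate to lactate, had 948, 1049, 1011, 893 and 667 CPM in the obese endpoint libraries, against 1019, 1007, 846 and 873 CPM in the lean endpoint libraries. Values of Ldha at midpoint were 1567, 2487, 2684, 1425 and 1644 CPM in the obese midpoint libraries, against 1413, 994, 1183 and 1498 CPM in the lean midpoint libraries. The obese midpoint group overlapped the lean one through replicate 4, and no endpoint library of obese mice reached the lowest obese midpoint library. Ldha was higher in obese mice at midpoint by 0.63 (log2, SE 0.20, edgeR adjusted p = 0.0332) and fell over time in obese mice by 1.10 (log2, SE 0.19, edgeR adjusted p = 3.57e-05). Both calls remained after the correction, at 0.60 (log2, SE 0.18, edgeR adjusted p = 0.0412) and -0.78 (log2, SE 0.17, edgeR adjusted p = 0.000746). Slc16a3 had 182, 185, 182, 161 and 133 CPM in the obese endpoint libraries, against 135, 166, 129 and 167 CPM in the lean endpoint libraries. Midpoint levels of Slc16a3 were 291, 565, 571, 259 and 354 CPM in the obese midpoint libraries, against 248, 176, 223 and 280 CPM in the lean midpoint libraries. Every endpoint library was below every midpoint library of the same host. Slc16a3 was higher in obese mice at midpoint by 0.82 (log2, SE 0.22, edgeR adjusted p = 0.0315), and fell over time in obese mice by 1.27 (log2, SE 0.21, edgeR adjusted p = 2.64e-05) and in lean mice by 0.64 (log2, SE 0.23, edgeR adjusted p = 0.0448). After the correction the fall in obese mice remained a call, at -0.51 (log2, SE 0.14, edgeR adjusted p = 0.0039), while the other 2 values were 0.35 and -0.34 and did not pass.

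Slc16a1 had 177, 165, 185, 172 and 162 CPM in the obese endpoint libraries, against 219.7, 172, 149 and 191 CPM in the lean endpoint libraries. At midpoint, Slc16a1 had 114, 20.3, 29.99, 72.7 and 45.3 CPM in the obese midpoint libraries, against 92.6, 158, 149 and 82.7 CPM in the lean midpoint libraries. Its lowest values came from obese midpoint replicates 2 and 3, the pair with the highest values of Slc16a3, and replicate 1 of that group lay inside the lean range. Slc16a1 was lower in obese mice at midpoint by 1.09 (log2, SE 0.34, edgeR adjusted p = 0.0326) and rose over time in obese mice by 1.61 (log2, SE 0.33, edgeR adjusted p = 0.000247). In lean mice the change was 0.60 (log2, SE 0.36, edgeR adjusted p = 0.204). With the correction these log2 values were -0.51, -0.03 and -0.31, none past the threshold and the last 2 turned in sign. Slc16a1 has the second lowest GC content of the 33 genes, 42.91%, and Slc16a3 has 56.63%.

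**Figure D3:**
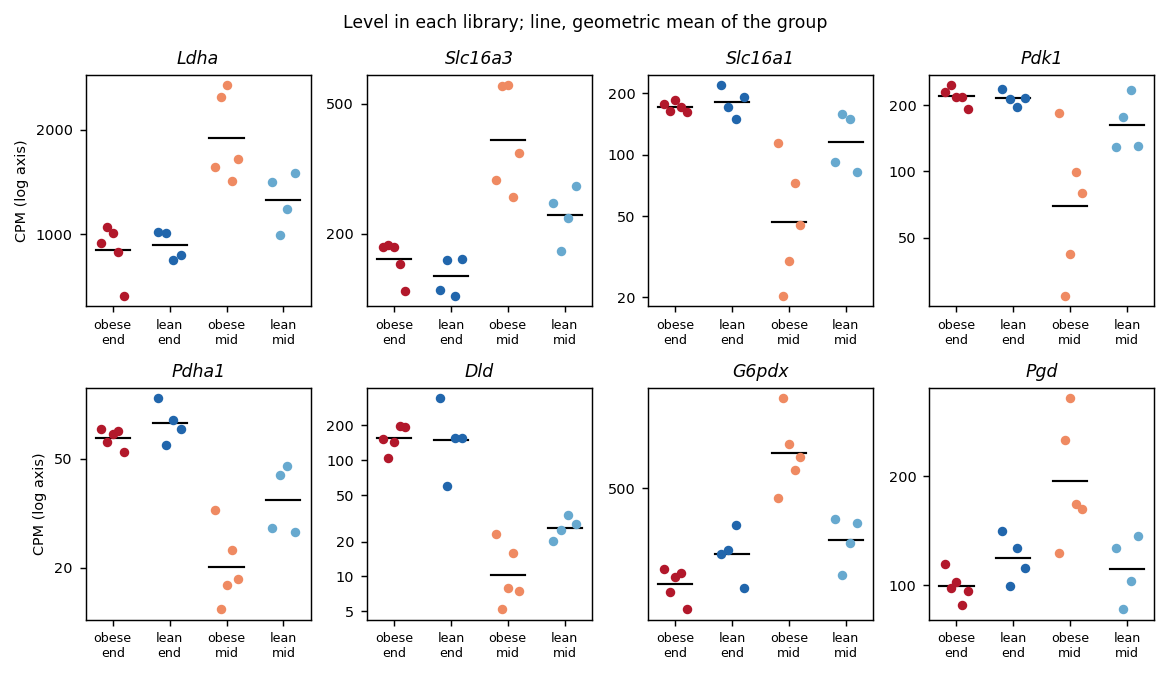
CPM of 8 genes in each library on log axes, with groups from left to right obese endpoint, lean endpoint, obese midpoint and lean midpoint; lines are geometric means. Slc16a3 and Slc16a1 spread in opposite directions within the obese midpoint group, and Dld lies between 60.1 and 342 CPM in all endpoint libraries and at or under 33.6 CPM in all midpoint libraries.

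In the entry of pyruvate into the citric acid cycle 2 of 5 genes were lower in obese mice at midpoint and none was higher; over time 4 rose in obese and 2 in lean mice. Dld, the dihydrolipoamide dehydrogenase that the pyruvate complex shares with other dehydrogenase complexes, at chr12:31331564-31351437, minus strand, had 153, 106, 142, 196 and 193 CPM in the obese endpoint libraries, against 342, 60.1, 156 and 157 CPM in the lean endpoint libraries. The midpoint values of Dld were 23.1, 5.23, 8.02, 15.8 and 7.51 CPM in the obese midpoint libraries, against 20.1, 25.1, 33.6 and 28.4 CPM in the lean midpoint libraries. Endpoint and midpoint libraries were far apart in both hosts, with no overlap. Dld rose by 3.73 (log2, SE 0.43, edgeR adjusted p = 8.35e-07) in obese and 2.74 (log2, SE 0.46, edgeR adjusted p = 0.000392) in lean mice, the largest increases of the 32 tested genes in both. The corrected increases were smaller and remained calls, at 1.95 (log2, SE 0.23, edgeR adjusted p = 1.36e-06) and 1.61 (log2, SE 0.25, edgeR adjusted p = 0.000457). At midpoint Dld was lower in obese mice by 1.17 (log2, SE 0.41, edgeR adjusted p = 0.0421) with overlap through replicate 1, and the corrected -0.59 (log2, SE 0.23, edgeR adjusted p = 0.0922) did not pass. Its GC content of 40.64% is the lowest of the 33 genes.

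Pdha1 encodes the catalytic alpha subunit, which the kinases phosphorylate. It had 64.2, 57.7, 61.5, 63.04 and 53.01 CPM in the obese endpoint libraries, against 83.03, 56.2, 69.04 and 64.2 CPM in the lean endpoint libraries. Midpoint levels of Pdha1 were 32.3, 14.1, 17.2, 23.2 and 18.2 CPM in the obese midpoint libraries, against 27.9, 43.4, 46.9 and 27.1 CPM in the lean midpoint libraries. No endpoint library overlapped a midpoint library of the same host. Pdha1 rose over time by 1.51 (log2, SE 0.22, edgeR adjusted p = 6.06e-06) in obese and 0.91 (log2, SE 0.24, edgeR adjusted p = 0.00769) in lean mice, and was lower in obese mice at midpoint by 0.79 (log2, SE 0.22, edgeR adjusted p = 0.0315). Corrected, the rise in obese mice was 0.34 (log2, SE 0.11, edgeR adjusted p = 0.012), that in lean mice 0.33 (log2, SE 0.12, edgeR adjusted p = 0.0503), and the diet difference -0.21; the first alone passed. Pdhb and Dlat, the beta subunit and the acetyltransferase core, follow. Pdhb had 30.7, 30.1, 33.4, 29.3 and 28.1 CPM in the obese endpoint libraries, against 47.4, 32.1, 30.97 and 30.8 CPM in the lean endpoint libraries. At midpoint, Pdhb had 30.6, 18.4, 25.99, 27.8 and 25.9 CPM in the obese midpoint libraries, against 27.7, 31.8, 30.8 and 27.3 CPM in the lean midpoint libraries. Its groups overlapped in all 4 comparisons of 2 groups, and its fold change over time in lean mice was 0.26 (log2, SE 0.18, edgeR adjusted p = 0.262). Over time in obese mice Pdhb was not called from the deposited counts. The corrected value there was a call in the downward direction, at -0.45 (log2, SE 0.11, edgeR adjusted p = 0.00137). Dlat rose over time in obese mice by 0.40 (log2, SE 0.16, edgeR adjusted p = 0.0268), a change whose sign turned under the correction to -0.51 (log2, SE 0.10, edgeR adjusted p = 0.000266).

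Pdk1, a kinase that inhibits the complex and a known target of hypoxia signalling, had 229, 247, 219, 219 and 192 CPM in the obese endpoint libraries, against 237, 213, 196 and 215 CPM in the lean endpoint libraries. Values of Pdk1 at midpoint were 185, 27.2, 42.01, 98.9 and 79.8 CPM in the obese midpoint libraries, against 129, 176, 234 and 130.3 CPM in the lean midpoint libraries. Within the obese midpoint group replicates 2 and 3 were lowest and replicate 1 highest, the same order of extremes as for Slc16a1 and Pdha1. The diet difference at midpoint was -0.95 (log2, SE 0.36, edgeR adjusted p = 0.0504) and missed the threshold. Over time in obese mice Pdk1 rose by 1.35 (log2, SE 0.34, edgeR adjusted p = 0.00151) without overlap, and the corrected value was 0.16 (log2, SE 0.24, edgeR adjusted p = 0.585). In lean mice it changed by 0.36 (log2, SE 0.38, edgeR adjusted p = 0.467).

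All 5 genes of the pentose phosphate pathway were higher in obese mice at midpoint, all 5 fell over time in obese mice, and none was called over time in lean mice, where their median log2 fold change was -0.35 with 4 of 5 below 0. G6pdx, the dehydrogenase that opens the pathway and yields NADPH, had 361, 329.8, 351, 355 and 308 CPM in the obese endpoint libraries, against 385, 390.1, 432 and 335 CPM in the lean endpoint libraries. Midpoint levels of G6pdx were 481, 716, 595, 538 and 566 CPM in the obese midpoint libraries, against 442, 354, 401 and 434 CPM in the lean midpoint libraries. All obese midpoint libraries were above all lean ones. The diet difference was 0.51 (log2, SE 0.14, edgeR adjusted p = 0.0315), and 0.35 (log2, SE 0.11, edgeR adjusted p = 0.0432) after the correction. G6pdx fell over time in obese mice by 0.76 (log2, SE 0.13, edgeR adjusted p = 3.56e-05), against a corrected -0.23 that did not pass. Pgd, the next NADPH-yielding dehydrogenase, had 115, 98.5, 102, 88.5 and 96.6 CPM in the obese endpoint libraries, against 141, 99.7, 127 and 112 CPM in the lean endpoint libraries. At midpoint, Pgd had 123, 252, 328, 168 and 162 CPM in the obese midpoint libraries, against 127, 86.1, 103 and 136 CPM in the lean midpoint libraries. Obese midpoint replicate 1 lay inside the lean range and the other 4 libraries above it. Its diet difference was 0.87 (log2, SE 0.23, edgeR adjusted p = 0.0315) and its change over time in obese mice -1.05 (log2, SE 0.22, edgeR adjusted p = 0.000254). These grew under the correction, to 1.30 (log2, SE 0.29, edgeR adjusted p = 0.0282) and -1.87 (log2, SE 0.27, edgeR adjusted p = 1.3e-05). The GC content of Pgd is 48.46%, the lowest of the 15 genes called higher.

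Pgls, the lactonase between these dehydrogenases, had 42.01, 44.9, 34.9, 43.96 and 34.2 CPM in the obese endpoint libraries, against 21.9, 61.3, 49.9 and 39.5 CPM in the lean endpoint libraries. The midpoint values of Pgls were 67.6, 176, 149.6, 73.4 and 106 CPM in the obese midpoint libraries, against 59.2, 45.5, 46.6 and 77.7 CPM in the lean midpoint libraries. Its midpoint groups overlapped, and its diet difference of 1.00 (log2, SE 0.30, edgeR adjusted p = 0.0317) was the largest increase of the 32 genes at midpoint. Pgls fell over time in obese mice by 1.52 (log2, SE 0.28, edgeR adjusted p = 7.99e-05). Taldo1 and Tkt, the transaldolase and transketolase of the non-oxidative branch, link the pathway back to glycolysis. Taldo1 had 94.7, 74.1, 78.8, 73.9 and 54.9 CPM in the obese endpoint libraries, against 61.98, 77.98, 75.95 and 86.5 CPM in the lean endpoint libraries. Midpoint levels of Taldo1 were 114, 179, 184, 115 and 123 CPM in the obese midpoint libraries, against 98.9, 83.2, 92.5 and 112 CPM in the lean midpoint libraries. Obese midpoint libraries were all above the lean ones, by 0.57 (log2, SE 0.19, edgeR adjusted p = 0.037). Tkt had 298, 309.5, 298, 304 and 224 CPM in the obese endpoint libraries, against 243, 383, 353 and 298 CPM in the lean endpoint libraries. At midpoint, Tkt had 486, 909, 718, 454 and 662 CPM in the obese midpoint libraries, against 433, 318, 361 and 525 CPM in the lean midpoint libraries. Tkt was higher in obese mice at midpoint by 0.66 (log2, SE 0.21, edgeR adjusted p = 0.0328), with overlap through replicates 1 and 4. Taldo1 fell over time in obese mice by 0.92 (log2, SE 0.18, edgeR adjusted p = 0.000123) and Tkt by 1.17 (log2, SE 0.20, edgeR adjusted p = 3.04e-05). After the correction none of these 3 genes passed in the diet comparison at midpoint, at 0.45, 0.25 and 0.41 for Pgls, Taldo1 and Tkt, while Pgls and Tkt still fell over time in obese mice, at -0.51 (log2, SE 0.17, edgeR adjusted p = 0.0144) and -0.78 (log2, SE 0.15, edgeR adjusted p = 0.000243), and Taldo1 did not, at -0.08.

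Fold changes followed the GC content of the genes. Across the 32 tested genes the Pearson correlation of log2 fold change with GC content was 0.811 for obese against lean at midpoint, 0.024 for the same comparison at endpoint, -0.71 for the change over time in lean mice and -0.804 for that in obese mice. All points of a comparison share the same libraries and their base composition trends, so these values are descriptions. The 15 genes called higher at midpoint in obese mice had a GC content of 48.46% to 57.69% (median 54.02%), and the 3 called lower 40.64% to 45.51% (median 42.91%). The pyruvate entry genes lie between 40.64% and 47.19%, whereas all genes of glycolysis and the pentose phosphate pathway lie at 48% or more. The corrected medians at midpoint were 0.04 in upper glycolysis, 0.16 in lower glycolysis, 0.35 in lactate handling, -0.21 in pyruvate entry and 0.41 in the pentose phosphate pathway, against 0.44, 0.46, 0.63, -0.79 and 0.66 from the deposited counts. A pair of libraries stood out in slope, obese midpoint replicates 2 and 3 at 1.52 and 1.21. Without this pair the diet difference at midpoint gave 0 calls here and over all genes, with a median log2 fold change of 0.23 for these genes.

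**Figure D4:**
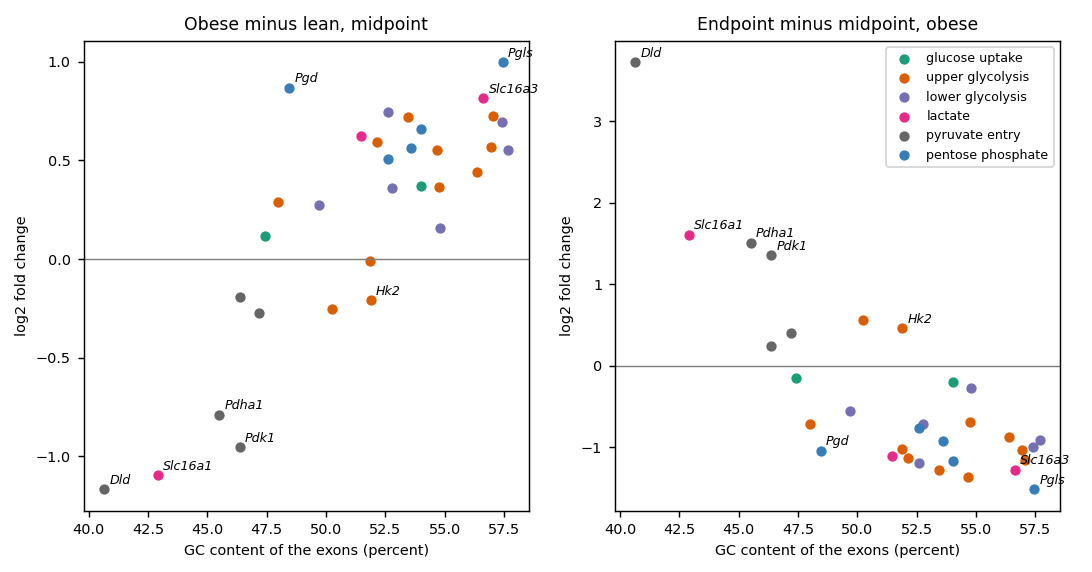
Log2 fold change against the GC content of each gene's longest transcript (percent, labelled on the axes as exons) for 32 genes, coloured by step, for obese minus lean at midpoint (left) and endpoint minus midpoint in obese mice (right). Genes of low GC content lie lowest on the left and highest on the right, with correlations of 0.811 and -0.804, and Pgd stands above its neighbours on the left.

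Ratios of paired genes within a library do not depend on library scaling, but the GC and length correction can move them. Of 36 tests, 9 pairs in 4 comparisons, none passed an adjusted p of 0.05 in exact two-sided permutation tests, in which the smallest raw p possible was 0.00794 for 5 against 4 or 5 libraries and 0.0286 for 4 against 4; 10 had an unadjusted p under 0.05. The log2 ratio of Slc16a3 to Slc16a1 was -0.04 ± 0.168 in obese endpoint libraries and 3.04 ± 1.49 in obese midpoint libraries (SD, n = 5 each; difference -3.08, exact p = 0.00794, adjusted 0.0714), without overlap; the corrected difference was -0.52 (exact p = 0.19). At midpoint that ratio was 2.06 higher in obese than in lean mice (exact p = 0.0556, adjusted 0.167), and 0.87 higher after the correction (exact p = 0.0794, adjusted 0.159). The ratio of Hk2 to Hk1 was -0.145 ± 0.174 in obese endpoint libraries and -1.49 ± 0.462 in obese midpoint libraries (SD, n = 5 each), a difference of 1.35 (exact p = 0.00794, adjusted 0.0714) without overlap, and the corrected difference of 0.97 had the same raw p. Pfkfb4 to Pfkfb3 was the sole ratio without overlap between diets at endpoint: it was -2.85 ± 0.106 in obese (SD, n = 5) and -2.40 ± 0.142 in lean mice (SD, n = 4), a difference of -0.45 (exact p = 0.00794, adjusted 0.0714) and of -0.39 after the correction (exact p = 0.00794, adjusted 0.0508). The ratio of Pfkp to Pfkl turned in sign under the correction. At midpoint its diet difference of -0.38 (exact p = 0.214) became 0.48 (exact p = 0.00794, adjusted 0.0508). Over time in obese mice 0.38 (exact p = 0.159) became -1.49 (exact p = 0.00794, adjusted 0.0508). For Slc2a3 to Slc2a1 that change over time went from 0.05 (exact p = 0.889) to -1.78 (exact p = 0.00794, adjusted 0.0508). No corrected ratio passed 0.05 either. The ratio of Ldhb to Ldha rests on the added count, since Ldhb was near 0.

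**Figure D5:**
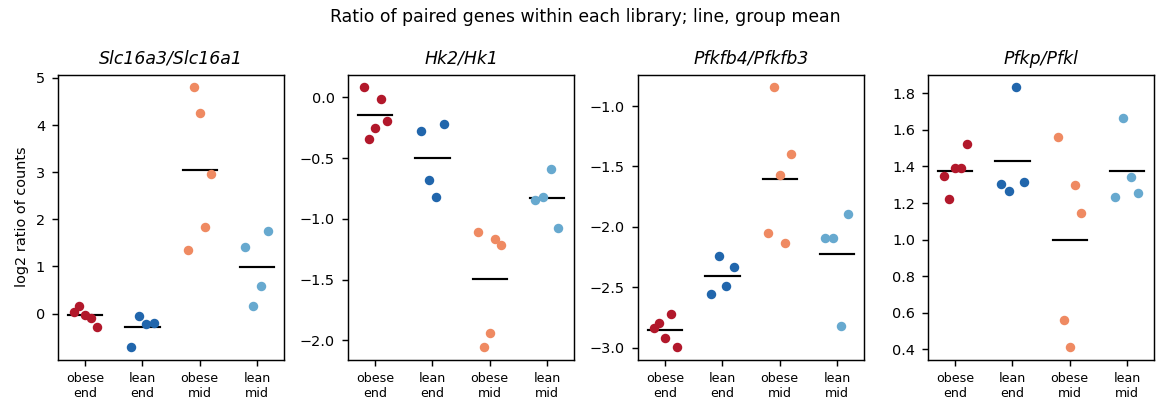
Log2 ratio of counts of 4 gene pairs in each library, with groups from left to right obese endpoint, lean endpoint, obese midpoint and lean midpoint; lines are group means. Slc16a3 to Slc16a1 averages 3.04 in obese midpoint libraries, and Pfkfb4 to Pfkfb3 lies lower in all obese endpoint than in all lean endpoint libraries.

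A further 48 genes of these pathways were listed, of which 36 passed the filter. In obese mice at midpoint 4 were higher and 2 lower (11.1% and 5.56%, against 16.4% and 12.6% of all genes). Those with the smallest p were Pdp1, a phosphatase that reactivates pyruvate dehydrogenase, at -1.48 (log2, SE 0.30, edgeR adjusted p = 0.0315), G6pc3, a ubiquitous glucose phosphatase, at 0.70 (log2, SE 0.20, edgeR adjusted p = 0.0315), Pfkfb2, a relative of Pfkfb3, at -0.74 (log2, SE 0.21, edgeR adjusted p = 0.0315), and Bsg, the chaperone of the lactate transporters, at 0.66 (log2, SE 0.21, edgeR adjusted p = 0.0326). Of these, Pdp1 alone remained a call after the correction, at -0.82 (log2, SE 0.21, edgeR adjusted p = 0.0287); the corrected log2 values were 0.10 for G6pc3, -0.14 for Pfkfb2 and 0.04 for Bsg. The correction gave 3 higher and 1 lower of the 36. At endpoint 0 of the 36 were called between diets. Over time 9 rose and 14 fell in obese mice (25% and 38.9%, against 37.8% and 36.1% of all genes), and 5 rose and 4 fell in lean mice (13.9% and 11.1%, against 21.2% and 9.33%); corrected, these counts were 6 and 12 in obese and 4 and 3 in lean mice. Hif1a, the oxygen-regulated activator of many glycolytic genes, had the smallest p in both: it rose by 3.36 (log2, SE 0.35, edgeR adjusted p = 4.88e-07) in obese and 2.47 (log2, SE 0.38, edgeR adjusted p = 0.000273) in lean mice, and by a corrected 1.23 and 1.15. Pfkfb2 rose by 1.94 and 1.09 and Rpe, the pentose phosphate epimerase, by 2.52 and 1.47 in obese and lean mice; Pdp1 rose by 2.47 in obese mice and Pdpr, a regulator of that phosphatase, by 1.02 in lean mice. The corrected values were 0.29 and 0.19 for Pfkfb2, 0.41 and 0.20 for Rpe, 0.22 for Pdp1 and 0.73 for Pdpr, of which Rpe in obese mice and Pdpr in lean mice remained calls. Summed over 10 macrophage and monocyte markers, the level was 124 to 660 CPM in obese endpoint, 226 to 390 CPM in lean endpoint, 160 to 300 CPM in obese midpoint and 210 to 496 CPM in lean midpoint libraries, and 4 of the 10 were lower in obese mice at midpoint. The 660 CPM came from obese endpoint replicate 4, and the next highest of that group was 205 CPM in replicate 5. Marker calls here are from the deposited counts, without the correction. Of the 7 pan-leukocyte markers, none at 0 in all libraries, Ptprc, Cd53 and Lcp1 were lower and Arhgdib higher in obese mice at midpoint. Their sum was 682 to 916 CPM in obese endpoint, 602 to 1151 CPM in lean endpoint, 1195 to 1823 CPM in obese midpoint and 1019 to 1177 CPM in lean midpoint libraries, of which Arhgdib made up 73.2% to 96.1%. The other 6, summed without Arhgdib after its values were seen, came to 72.0 to 246 CPM in obese endpoint, 88.9 to 137 CPM in lean endpoint, 71.7 to 116 CPM in obese midpoint and 92.1 to 192 CPM in lean midpoint libraries. Ptprc, the common leukocyte antigen, had 0.672 to 1.58 CPM in obese midpoint and 3.26 to 4.4 CPM in lean midpoint libraries. With the mean log2 level of the 7 markers as a covariate, 0 of the 32 genes and 0 of all genes were called between diets at midpoint, and the median log2 fold change of the 32 was 0.36, against 0.41 without it. That mean level was 3.8 to 4.42 in obese and 4.38 to 5.03 in lean midpoint libraries, so the fit could hardly separate it from the diet.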

How the data were processed

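RNA-seq was measured in sorted E0771 cells. The deposited table holds whole-number read counts per gene, raw as deposited by the authors (the column values are not scaled to a common total); TopHat, DESeq and mm10 are named in the submitters' processing notes, and read length and the treatment of reads with several matches are stated nowhere in these sources. The authors' endpoint columns hold the same kind of counts as the midpoint columns. Symbols matched 37607 of 39017 gene IDs.

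Genes kept by filterByExpr (16352) were fitted with edgeR 4.0.16 in R 4.3.3 (TMM scaling, quasi-likelihood with robust estimation, 1 mean for each of 4 groups), with Benjamini-Hochberg adjustment over all of them and a threshold of 0.05. CPM were computed from these counts. The genes and gene lists were chosen with earlier results of these data known, so no test over a list was made. Replicates are separate samples in the labels, which do not say that each came from a different mouse, so p-values measure the spread between these libraries. All 32 pairs of libraries within groups differed beyond sampling noise (smallest chi-square per degree of freedom 35.73).

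The GC and length correction subtracted a natural spline with 4 degrees of freedom from each library's log2 counts. Alternatives were DESeq2 1.42.0, limma 3.58.1 (voom with quality weights), RLE scaling, no filter, the compared groups alone, a replicate block, a leukocyte covariate and omission of each library. The fits were run on simulated counts that had no GC or length trend between libraries. That run does not address the trend measured here, and no outcome of it is used. Isozyme ratios used log2 of counts plus 0.5 and exact two-sided permutation tests. Values per library are given for genes called between diets and for up to 3 genes per step with the smallest p over time. Shared sequence is the share of an mRNA's 50-base stretches found in other genes. Promoter sequences are RefSeq's for GRCm38.p6.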

Additional observations from a re-analysis of the deposited data

Results flagged for a closer look

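Within groups of 4 or 5 libraries, 10 of 164 sets of values held 1 library far from the others, by the gap to its nearest neighbour as a share of the group's range (above 0.829 for 4 and 0.71 for 5 libraries); chance gives about 1 in 20. Obese endpoint replicate 5 was the lowest of its group in log2 CPM of Tkt (7.81, share 0.881), Pkm (10.4, share 0.799) and Aldoa (9.45, share 0.713), and the highest in the log2 ratio of Pfkm to Pfkl (-1.69, share 0.773). Obese endpoint replicate 1 was the lowest for Pfkfb4 (log2 CPM 3.14, share 0.736). Among lean endpoint libraries, replicate 1 was the highest for Pdhb (log2 CPM 5.57, share 0.905), replicate 5 for Dlat (log2 CPM 5.99, share 0.86) and replicate 3 for the log2 ratio of Pfkp to Pfkl (1.83, share 0.912). Obese midpoint replicate 3 was the lowest of its group for Slc2a3 (log2 CPM 4.10, share 0.736) and for the log2 ratio of Ldhb to Ldha (-17.7, share 0.798), where Ldhb is near 0.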

How the results depend on the processing

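No called fold change turned its sign except under the GC and length correction, alone or with the block. The 18 calls for obese against lean at midpoint became 8 with no filter and 6 with the correction. They became 0 with the block and correction together, with the compared groups alone, with the leukocyte covariate and without obese midpoint replicates 2 and 3. In each fit with 0 no gene of the whole table was called. Omitting 1 library gave 0 to 22, the highest without obese midpoint replicate 1, where 48.8% of all genes were called. RLE scaling gave 14 higher and 4 lower, against 15 and 3, and of all genes called it put 46.6% higher, against 56.6%. The 5 calls over time in lean mice became 8 with DESeq2, 9 with limma-voom, 9 with the compared groups alone and 15 without the pair of obese midpoint libraries. The shares of all genes called in these fits are not given, so the larger counts do not show a change of these genes alone. With 1 library omitted there were 1 to 10, while 19.1% to 38.6% of all genes were called. Where a count has no share of all genes beside it, as with no filter, it does not show a change of these genes alone. The 0 calls of the interaction became 3 with DESeq2 and 14 with limma-voom, and 0 to 15 with 1 library omitted. Over time in obese mice 26 to 28 of 28 calls came with 1 library omitted, and at endpoint 0 throughout. The pair of libraries, and the block combined with the correction, were chosen after seeing the data. Leaving out mitochondrial and structural RNA genes moved the median of all genes over time in obese mice to 0.123 from -0.0015.

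Among values called before or after the correction, its sign turned in 11 cases: for Pkm at midpoint between diets (-0.0069), for Pfkfb4 (0.33) and Dlat (-0.40) over time in lean mice, and over time in obese mice for Slc2a1 (0.58), Pfkfb4 (0.026), Aldoa (0.047), Pgam1 (0.0095), Pkm (0.20), Slc16a1 (-0.032), Pdhb (-0.45) and Dlat (-0.51). With the replicate block as well, these were -0.42 for Dlat in lean mice and 0.58, 0.029, 0.043, 0.013, 0.20, -0.038, -0.46 and -0.51 in obese mice, in the same order. In 21 other cases over the 4 comparisons of 2 groups, called neither before nor after, the sign turned too (3 between diets at midpoint, 7 at endpoint, 10 over time in lean and 1 in obese mice). That base composition differs between libraries is measured; its cause was not tested.

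Deviations of same-numbered libraries from their group means correlated at -0.403 to 0.551, with both signs present. These values show no consistent pairing, but they cannot exclude that some same-numbered libraries share more than a number. With the replicate block 15 were called between diets at midpoint and 2 over time in lean mice. The share of all genes is not given for the block, so these counts do not show a change of these genes alone. At 44174080 counts or more per library, Ldhb (0 to 0.185 CPM) alone was too low to test.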
